A study of Mus musculus with 8 samples.

Results

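Mef2a, Mef2b, Mef2c and Mef2d encode the MEF2 transcription factors, and Hdac4, Hdac5, Hdac7 and Hdac9 encode the class IIa histone deacetylases that repress them. They were examined as 8 mouse genes chosen by name, with every cluster of the authors' 2 deposited lists that overlapped a gene, or the 3000 bp on either side of it, counted as a cluster at that gene. A cluster is 1 entry of these lists, a stretch of the genome or a single position that the authors treated as 1 region. Of 27878 clusters listed, 22 lay at these genes, 9 at the Mef2 genes and 13 at the class IIa Hdac genes. All 8 genes held at least 1, against 47.9% of 21887 protein-coding genes and 55.8% of the 8598 with a length similar to any of the 8. Of the genes similar in length to Mef2a, Mef2c, Hdac4 or Hdac9, the longer members, only 26.7, 24.3, 19.6 and 8.33% had none.

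The clusters come from reduced representation bisulfite sequencing, which reads cytosine methylation in a CpG-rich part of the genome, in sorted muscle stem cells. There were 4 samples labelled as fixed, with titles that begin T0, and 4 labelled as live, with titles that begin T3, and each sample came from 1 mouse of the Tg:Pax7-nGFP/+ strain, in which a nuclear green fluorescent protein reports Pax7. The design text gives 0.5% paraformaldehyde as the fixative and places fixation after isolation, whereas the series title speaks of fixation in situ. Every fixed sample has a T0 title and every live sample a T3 title. The effects of fixation, of handling and of whatever these titles mark therefore cannot be told apart. DNA of all 8 samples was extracted with a kit made for fixed tissue, per the labels' protocols, and the age of the mice is not given in the labels. The lists carry positions and the authors' verdict, with no value per sample and no read depth, so no methylation level is given for any cluster at these genes and no test between fixed and live samples was run on them.

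MEF2 factors are MADS-box proteins that bind an A/T-rich motif and, together with the MyoD family, switch on genes of muscle differentiation. Class IIa deacetylases bind MEF2 through their N-terminal part and bring in corepressor complexes, which carry Hdac3. Calcium-dependent and other kinases phosphorylate the deacetylases, which then leave the nucleus bound to adaptor proteins and free MEF2 to activate its targets. In muscle stem cells this balance is known for its part in the step from proliferating myoblast to myotube.

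RefSeq promoter windows (GRCm38.p6, the assembly that mm10 names), each from 250 bases before to 50 bases after a listed transcript start, were available for all 8 genes and 14 starts. Reduced representation libraries are commonly cut with MspI, which recognises CCGG; the enzyme is not named in the sources used here. Among 21263 windows of protein-coding genes, 62.2% held CCGG, and 40.1% of those had a cluster within 1000 bp of the start, against 9.03% of the windows without CCGG. A cluster overlapped only 3 of the 8042 windows without CCGG and 2075 of the 13221 with it. Windows with CCGG also held more CpG, a median of 21 against 3, so these shares do not separate CCGG from CpG content. At the 8 genes, 6 of the 14 windows held CCGG, and 4 of these had a cluster within 1000 bp of their start, as did 2 of the 8 windows without it. Hdac7 starts 2 and 3 are both among the 4, although their windows overlap and they share their nearest cluster. The windows below are shown because they hold or adjoin a cluster, or lack one in contrast; each reads 5′ to 3′ along the gene, with CCGG in capitals. CCGG reads the same on both strands, and its matches cannot overlap one another.

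The third of the 4 Hdac7 starts (chr15:97831446-97831745, minus strand) has 9 CCGG matches and a cluster inside its window:
Hdac7, start 3: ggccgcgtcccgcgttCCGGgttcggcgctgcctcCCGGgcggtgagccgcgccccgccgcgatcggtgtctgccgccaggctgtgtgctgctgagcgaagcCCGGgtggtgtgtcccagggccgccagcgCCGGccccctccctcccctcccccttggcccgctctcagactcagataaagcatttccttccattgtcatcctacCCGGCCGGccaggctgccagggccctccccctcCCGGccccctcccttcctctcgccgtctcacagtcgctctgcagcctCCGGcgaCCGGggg

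The second of the 3 Mef2c starts (chr13:83523406-83523705, plus strand) has 1 match and a cluster 228 bp beyond the start. The Mef2d window (chr3:88142122-88142421, plus strand) and the Hdac4 window (chr1:92180292-92180591, minus strand) have 0 matches. A cluster lay 314 and 330 bp beyond their starts. All 3 of these clusters lie outside the windows, where CCGG was not looked for:
Mef2c, start 2: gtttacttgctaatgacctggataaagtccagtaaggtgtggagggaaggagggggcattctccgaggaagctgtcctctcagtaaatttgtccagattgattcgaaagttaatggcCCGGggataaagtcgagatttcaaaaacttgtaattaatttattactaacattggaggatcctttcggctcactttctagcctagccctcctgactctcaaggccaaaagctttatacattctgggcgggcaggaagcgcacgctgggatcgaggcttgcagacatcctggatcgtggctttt
Mef2d: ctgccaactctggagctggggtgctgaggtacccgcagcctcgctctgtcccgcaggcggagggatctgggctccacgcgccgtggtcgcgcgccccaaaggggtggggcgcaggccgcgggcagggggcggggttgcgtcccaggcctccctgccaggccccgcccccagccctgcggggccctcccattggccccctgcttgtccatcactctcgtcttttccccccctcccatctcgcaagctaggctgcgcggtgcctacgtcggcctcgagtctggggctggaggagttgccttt
Hdac4: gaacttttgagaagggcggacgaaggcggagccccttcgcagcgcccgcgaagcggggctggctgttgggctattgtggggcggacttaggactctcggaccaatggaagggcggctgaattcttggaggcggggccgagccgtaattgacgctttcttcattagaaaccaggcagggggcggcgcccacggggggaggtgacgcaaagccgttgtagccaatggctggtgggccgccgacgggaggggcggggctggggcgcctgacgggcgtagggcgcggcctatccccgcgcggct

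The Mef2a window (chr7:67372809-67373108, minus strand) has 4 matches and a cluster 634 bp before the start. The Hdac5 window (chr11:102230123-102230422, minus strand) has 2 matches, and its nearest cluster lay 11666 bp away. The first Hdac9 window (chr12:34917046-34917345, minus strand) has 0 matches and 0 CpG, and no cluster lay within 100 kb of that start:
Mef2a: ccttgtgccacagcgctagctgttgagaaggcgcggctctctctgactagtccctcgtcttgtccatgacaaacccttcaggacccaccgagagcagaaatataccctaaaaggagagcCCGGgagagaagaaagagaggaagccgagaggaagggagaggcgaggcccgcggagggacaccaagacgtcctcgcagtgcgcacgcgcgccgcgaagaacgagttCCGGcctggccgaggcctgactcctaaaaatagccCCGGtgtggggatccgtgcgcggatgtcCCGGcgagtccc
Hdac5: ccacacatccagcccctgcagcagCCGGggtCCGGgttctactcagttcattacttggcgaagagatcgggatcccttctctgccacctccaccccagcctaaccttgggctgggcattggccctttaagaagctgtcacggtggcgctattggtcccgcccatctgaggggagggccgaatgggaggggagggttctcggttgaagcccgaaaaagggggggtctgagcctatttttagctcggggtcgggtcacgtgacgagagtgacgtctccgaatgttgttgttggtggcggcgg
Hdac9, start 1: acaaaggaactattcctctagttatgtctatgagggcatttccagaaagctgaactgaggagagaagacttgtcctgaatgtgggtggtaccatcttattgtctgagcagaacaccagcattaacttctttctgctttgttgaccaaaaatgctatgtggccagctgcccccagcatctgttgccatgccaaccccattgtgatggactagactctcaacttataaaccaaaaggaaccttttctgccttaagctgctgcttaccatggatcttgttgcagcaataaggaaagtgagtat

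The MEF2 motif itself was looked for on both strands of the windows, by its usual 10-base consensus. It was found in 2 of the 14 windows, those of Mef2a and Hdac5, and in 2.74% of the windows of protein-coding genes. The Mef2a match reads CTAAAAATAG and begins 2 bases before the start. The Hdac5 match reads CTATTTTTAG and begins 20 bases before its start. Neither match lay in a cluster. The consensus cannot contain a CpG, so no CpG methylation call on the matches themselves was possible.

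The single-base cluster in the third Hdac7 window was placed on the sequence (chr15:97831615, minus strand). It is the G of a CpG on the gene's strand, directly followed by CCGG, shown here with 15 bases on either side of the cluster base and the CpG in capitals:
Hdac7 cluster: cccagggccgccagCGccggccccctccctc

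The same holds for the ends of clusters in general. In promoter windows of any gene, 454 of 455 single-base clusters, 1268 of 1269 first bases of longer clusters and all 1227 last bases lay on the C or the G of a CpG. With these exceptions, a cluster with its ends in such a window thus ran from one CpG to another.

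None of the 22 clusters was in the authors' list of significant clusters, and none was among the 73 clusters that stand out of order at the head of their other list. In the whole series 21 of 27878 clusters, or 0.0753%, were called significant. At that share 0.0166 calls would be expected among 22 clusters, and a count of 0 of 22 allows a called share of up to 13.6% (3 counts of the total, counting error only). The corresponding limits were 33.3% for the 9 Mef2 clusters and 23.1% for the 13 class IIa Hdac clusters. The lists therefore show no called change at these genes and cannot show that they were spared.

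Called regions lay megabases away. The nearest was 2.09 Mb from Hdac5 (chr11:104318117-104318237), which the authors' deposited table assigns to Kansl1 and gives a methylation difference of 14.5 percentage points. The next nearest lay 7.0 Mb from Mef2d; the authors' deposited table assigns it to Sema6c, at -25.7 points. For Mef2a, Hdac9, Mef2b, Mef2c and Hdac7 the distance ran from 11.5 Mb to 70.1 Mb, and chromosome 1, which carries Hdac4, had 0 called regions. The group subtracted from the other is not stated, so the signs carry no direction.

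**Figure D1:**
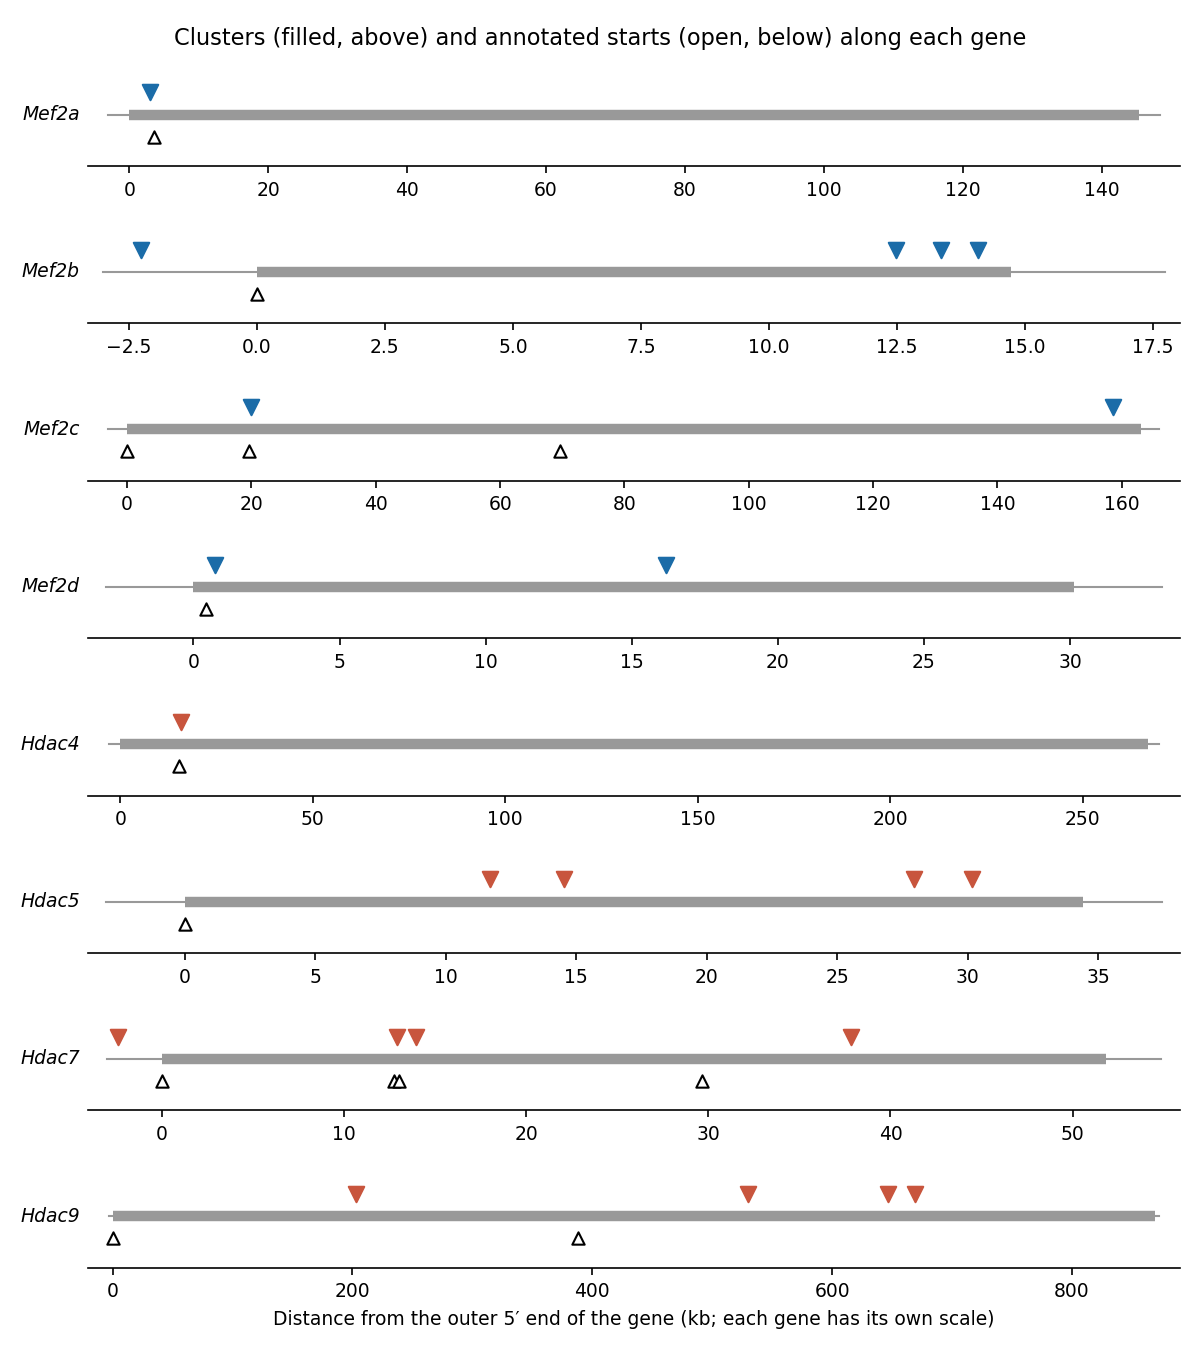
Position of the 22 clusters (filled triangles, by their midpoint) along the 8 genes (thick bar) with 3 kb on each side (thin line), in kb from the outer 5′ end and with a separate scale for each gene; open triangles are listed starts. Clusters stand beside a listed start in Mef2a, Mef2c, Mef2d, Hdac4 and Hdac7, while those of Mef2b, before the gene and towards its 3′ end, and those inside Hdac5 and Hdac9 lie over 1 kb from any listed start.

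Among the Mef2 genes, the shortest held the most clusters as listed; with clusters less than 1000 bp apart merged, Mef2b had 2, as did Mef2c and Mef2d. Mef2b (GeneID 17259, chr8:70152761-70167488, plus strand, 14.7 kb), whose product is best known from B cells, had 4 clusters. The first lay 2239 bp before the gene (chr8:70150473-70150522, 50 bp). The others were gathered towards the 3′ end of the gene, at 84.7, 90.8 and 95.6% of its length (chr8:70165204-70165277, 74 bp; chr8:70166085-70166174, 90 bp; chr8:70166835, 1 bp). The gaps between these were 807 and 660 bp, after a stretch of 14.7 kb with no cluster that took in the start and most of the gene body. All 4 also overlap the longer RefSeq gene Gm45929, so they cannot be assigned to Mef2b alone.

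Mef2d (GeneID 17261, chr3:88141941-88172091, plus strand, 30.2 kb), whose product is widely expressed, had 2 clusters. One was a single position 314 bp beyond the listed start (chr3:88142686), and the other was 203 bp long and near the middle of the gene, at 53.6% of its length (chr3:88158005-88158207). The gap between them was 15.3 kb.

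Mef2c (GeneID 17260, chr13:83504017-83667079, plus strand, 163 kb), a regulator of heart and skeletal muscle development, had 2 clusters. They lay towards opposite ends, but neither was within 3000 bp of an outer end. The first, of 73 bp, followed the second listed start by 228 bp (chr13:83523884-83523956). The other, of 79 bp, lay at 97.2% of the gene's length (chr13:83662527-83662605). Between them were 139 kb, or 82.0% of the region examined, with no cluster. The first listed start of Mef2c, whose window has 1 CpG, had no cluster closer than 19850 bp.

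Mef2a (GeneID 17258, chr7:67231163-67376456, minus strand, 145 kb), the other MEF2 gene long known from striated muscle, had a single cluster of 6 bp (chr7:67373492-67373497), 634 bp before its listed start and 2.96 kb inside the outer bound of the gene. The other 96.1% of the region, on its downstream side, had no listed cluster.

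Among the class IIa deacetylase genes, Hdac5 and Hdac7 were the most densely covered. Hdac5 (GeneID 15184, chr11:102195747-102230172, minus strand, 34.4 kb), an early example of a deacetylase exported from the nucleus during muscle differentiation, had 4 clusters, all inside the gene. In the direction of transcription they lay at 33.9% (chr11:102218472-102218506, 35 bp), 42.2% (chr11:102215609-102215687, 79 bp), 81.1% (chr11:102202216-102202288, 73 bp) and 87.6% (chr11:102199998-102200048, 51 bp) of its length. They formed 2 pairs with gaps of 2.78 and 2.17 kb, separated by 13.3 kb. The part of the gene before the first of them had none. The window at its start holds CCGG, but only 40.1% of all windows with CCGG had a cluster within 1000 bp of the start.

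Hdac7 (GeneID 56233, chr15:97792661-97844502, minus strand, 51.8 kb), known from thymocytes and blood vessels, also had 4. One lay 2325 bp before the gene (chr15:97846827-97846932, 106 bp). The next pair stood either side of the third start, at 120 bp before it (chr15:97831615, 1 bp) and 881 bp beyond it (chr15:97830488-97830614, 127 bp), separated by 1.00 kb. The first of this pair also lay 152 bp beyond the second start. The last was at 72.9% of the gene's length (chr15:97806633-97806744, 112 bp). The single-base cluster also overlaps the noncoding RNA gene Gm33636.

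Hdac9 (GeneID 79221, chr12:34047580-34917095, minus strand, 870 kb), whose shorter form MITR lacks the deacetylase part, is the longest of the 8 and had 4 clusters. They lay at 23.3, 60.9, 74.4 and 76.9% of its length (chr12:34714361-34714506, 146 bp; chr12:34387389-34387479, 91 bp; chr12:34270015-34270225, 211 bp; chr12:34248201-34248244, 44 bp). The gaps were 327, 117 and 21.8 kb. All 4 were over 100 kb from both listed starts and from both outer ends of the gene.

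Hdac4 (GeneID 208727, chr1:91928779-92195702, minus strand, 267 kb), which rises in denervated muscle, had 1 cluster, at 296 bp the longest of the 22 (chr1:92179716-92180011). It began 330 bp beyond the listed start, and 254 kb, or 93.0% of the region, had no cluster on its downstream side.

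Genes of similar length, defined as other protein-coding genes of 0.8 to 1.2 times the length, give a scale for these counts. No p-value was computed, since genes are not replicates and the members were chosen by name with earlier results known. The 4 clusters of Mef2b compare with a median of 0 (quartiles 0 and 1) over 2318 genes, of which 97.0% had fewer (83.1% with clusters less than 1000 bp apart merged). For Hdac5 the median was 1 (quartiles 0 and 1) over 2193 genes, of which 94.9% had fewer than its 4. For Hdac7 the median was 1 (quartiles 0 and 2) over 1799 genes, and 93.4% had fewer than 4. Counted as listed, these genes stood near the top of their length class.

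Mef2d, with 2 clusters, compared with a median of 0 (quartiles 0 and 1) over 2348 genes, of which 78.3% had fewer. Mef2c, also with 2, lay between the median of 1 and the upper quartile of 3 over 716 genes, of which 50.7% had fewer. Hdac9, with 4, lay between a median of 3 and an upper quartile of 6 over 72 genes, of which 51.4% had fewer. These 3 genes ranged from the upper part to the middle of their class.

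Mef2a and Hdac4 were at or below the middle. Mef2a, with 1 cluster, equalled the median of 803 genes, of which 26.7% had fewer and 47.9% had more. Hdac4, with 1, was below the median of 2 over 404 genes, of which 19.6% had fewer and 57.9% had more. In all, 6 of the 8 genes had more clusters than the median gene of similar length, 1 had as many and 1 had fewer. That median was 0 for Mef2b and Mef2d. The share of all protein-coding genes above their own median was not computed.

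**Figure D2:**
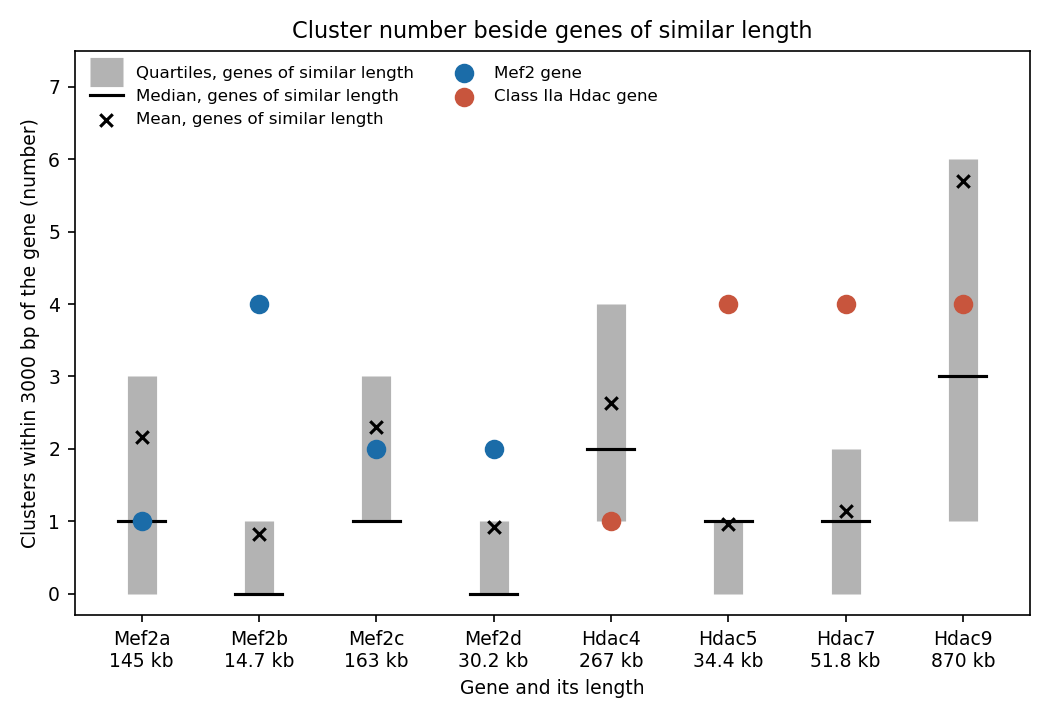
Number of clusters at each gene (points; Mef2 blue, class IIa Hdac red) beside protein-coding genes of 0.8 to 1.2 times its length (grey bars, quartiles; line, median; cross, mean). Mef2b, Hdac5 and Hdac7, with 4 each, stand above the quartiles, and Hdac4, with 1, stands below the median of 2.

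The genes next in length show how much such counts vary. Stard4 and Zfp874b, next to Mef2b, had 0 clusters each, and Bloc1s5 and Siae, next to Hdac5, had 0 and 1. Pkd2 and Arhgap36, next to Hdac7, had 1 and 4. Ncaph and Alkbh3, next to Mef2d, had 1 each, and Cdh7 and Tmem164, next to Mef2c, had 0 and 3. Zhx2 and Pign, next to Mef2a, had 5 and 1. Srgap1 and Zfp978, next to Hdac4, had 8 and 7 against its 1. Gm38667 and Dpyd, next to Hdac9, had 38 and 0, the widest contrast.

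Per length, the 8 genes differed more than in number. Counted over the gene and its flanks, Mef2b had 19.3 clusters per 100 kb, Hdac5 9.89, Hdac7 6.92 and Mef2d 5.53. Mef2c had 1.18, Mef2a 0.661, Hdac9 0.457 and Hdac4 0.366. The mean over genes of similar length was 4.03 for Mef2b, 2.45 for Hdac5, 2.04 for Hdac7 and 2.62 for Mef2d, and 1.40, 1.47, 0.669 and 1.01 for Mef2c, Mef2a, Hdac9 and Hdac4. The 4 shorter genes were thus above this mean per 100 kb and the 4 longer ones below it. The split depends on the use of a mean. In number, Mef2c (2 against a median of 1) and Hdac9 (4 against 3) were above the median of their class. The mean numbers of those classes, 2.31 and 5.69, were higher than the medians. The clusters covered from 0.00397% of the region examined at Mef2a to 1.04% at Mef2b.

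The 22 clusters were from 1 to 296 bp long, with a median of 76.5 bp and quartiles of 45.5 and 111 bp. At genes of similar length to any of the 8, the median was 86.0 bp with quartiles of 51.0 and 145 bp over 10486 clusters, counted once for each gene they lie at. The Mef2 genes had a median of 73.0 bp and the class IIa Hdac genes 91.0 bp. Single positions made up 3 of the 22, at Mef2b, Mef2d and Hdac7, or 13.6%, against 11.6% at genes of similar length. In these respects the clusters at the 8 genes resembled those at genes of similar length, and the difference was not tested. Over the whole lists the median was 89 bp, and single positions made up 8.87%.

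**Figure D3:**
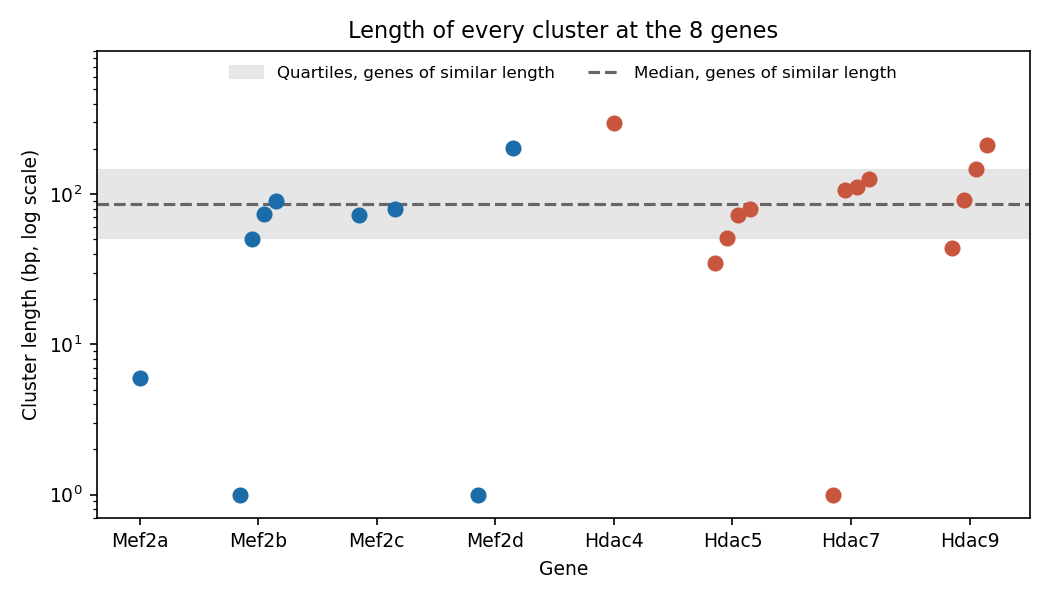
Length of each of the 22 clusters in bp (log scale) by gene (Mef2 blue, class IIa Hdac red), with the median (dashed line, 86.0 bp) and quartiles (band, 51.0 to 145 bp) of clusters at genes of similar length. The single positions at Mef2b, Mef2d and Hdac7 and the 6 bp cluster of Mef2a lie far below the band, and those of 296 bp at Hdac4, 211 bp at Hdac9 and 203 bp at Mef2d lie furthest above it.

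Gaps between clusters of 1 gene varied widely. Over the 14 gaps between neighbouring clusters of the same gene, the median was 14.9 kb and the range 0.66 to 327 kb. At genes of similar length the median of 5691 gaps was 6.82 kb. Most genes of that set match the shorter members, and a short gene cannot hold a long gap. Between neighbouring clusters of the whole lists, within genes or not, the median was 28308 bp. The differences were not tested.

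Position relative to the gene's outer ends was counted for each family. Of the 9 Mef2 clusters, 6 lay within 3000 bp of an outer end of their gene (66.7%, exact Clopper-Pearson 95% interval 29.9 to 92.5%), and 4 of these 6 were at Mef2b, which is short. Of the 13 class IIa Hdac clusters, 1 did, the one before Hdac7 (7.69%, interval 0.195 to 36.0%). The intervals overlap, cover counting error only and treat clusters of 1 gene as independent; the difference was not tested. Over all 8 genes the share was 31.8% (interval 13.9 to 54.9%), against 52.6% at genes of similar length. At the 8 genes it was 9.09% when the distance was 1000 bp. The pooled genes of similar length include 2318 matched to Mef2b but 72 matched to Hdac9, so they are weighted towards shorter genes. The effect of this on the share was not tested.

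Distance to a listed start was counted in the same way. Within 1000 bp of one lay 3 of 9 Mef2 clusters, at Mef2a, Mef2c and Mef2d, and 3 of 13 class IIa Hdac clusters, at Hdac4 and Hdac7. Together these were 27.3% (exact Clopper-Pearson 95% interval 10.7 to 50.2%), against 36.7% of 7985 clusters at those genes of similar length that have a listed start. None of the 22 was within 100 bp of a start, against 11.1% of the others, a share that a count of 0 of 22 allows. Over 100 kb away were 4 of the 22, or 18.2%, all at Hdac9, against 9.10% of the others. Here too the others are weighted towards shorter genes, and the effect of this was not tested. The window table does not list every start, so a cluster far from a listed start may still lie at another.

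**Figure D4:**
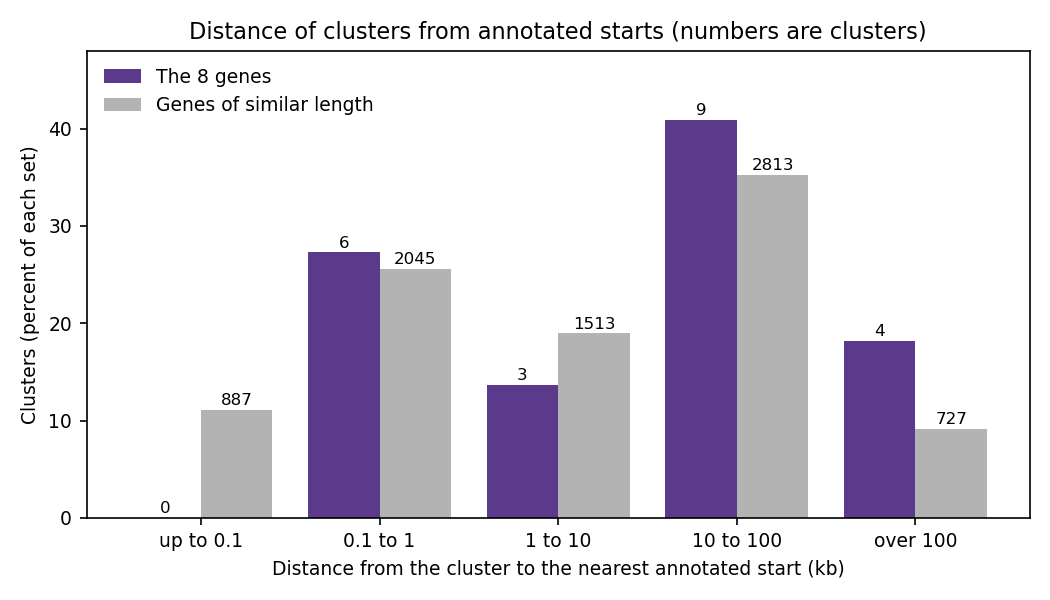
Percent of clusters by distance in kb from the nearest listed start, at the 8 genes (purple, 22 clusters) and at genes of similar length (grey, 7985 clusters); numbers above the bars are clusters. At the 8 genes 0 clusters lie within 0.1 kb, 6 lie from 0.1 to 1 kb, and 4 lie over 100 kb away.

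The CpG content of the windows ranged widely among the members. The Hdac7 windows at starts 2 and 3, which overlap, held 35 and 31 CpG, more than 90.9 and 86.0% of the windows of protein-coding genes. The Hdac4 window held 32, the Mef2a window 27 and the Mef2d window 24. All of these starts had a cluster within 1000 bp. The Hdac5 window, with 18 CpG, and the Mef2b window, with 11, did not. The second Mef2c window, with 10 CpG, had a cluster 228 bp from its start. The remaining windows, of Mef2c, Hdac7 and Hdac9, held from 0 to 6 CpG and had no cluster within 1000 bp of their starts.

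Other genes of the pathway, listed by role, held 151 clusters, of which 0 were called. At the overall called share 0.114 calls would be expected, so this count says nothing about these genes. The lists were drawn up with earlier results of these data known. Of 7 other histone deacetylase genes, 3 had a cluster, 5 at Hdac6, 3 at Hdac1 and 1 at Hdac3, the partner of class IIa enzymes in the corepressor complex, while Hdac2, Hdac8, Hdac10 and Hdac11 had 0. The 3 of 7 are 42.9%, against 47.9% of all protein-coding genes, and all but Hdac8 are from 5.4 to 27.6 kb long, with a median of 0 clusters at genes of similar length. Of 21 genes for kinases and the phosphatase calcineurin, many of which control where class IIa enzymes reside, 19 had a cluster (90.5%), 44 clusters in all. Camk2b had 9, and Camk2g and Sik1 had 4 each. Camk2b and Camk2g encode calcium/calmodulin-dependent kinase subunits, and Sik1 a salt-inducible kinase. These genes are from 5.46 to 421 kb long, and longer genes more often hold a cluster. The shares with a cluster, here and in the lists below, were not matched for length.

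Of 18 corepressor and adaptor genes, 13 had a cluster (72.2%, against 47.9% of all protein-coding genes). Bcl6, a transcriptional repressor, had 4, and Cabin1, a calcineurin and MEF2 inhibitor, had 3. Of 16 coactivators and partner factors, 9 had a cluster (56.25%). Nfatc2 had 7, and Srf, a MADS-box relative of MEF2, and Vgll4 had 4 each. The MyoD family genes Myod1, Myf5, Myog and Myf6, which are from 1.88 to 4.02 kb long, had 0 each. The median gene of their length also had 0. Of 20 target genes, 16 had a cluster (80%). Gata4 had 12, Nr4a1, a nuclear receptor gene, had 4, and Ckm, the muscle creatine kinase gene, had 3. Genes with more clusters than the median gene of similar length were then counted. They were 3 of 7, 12 of 21, 11 of 18, 7 of 16 and 15 of 20 for the lists in this order. For the Mef2 and class IIa Hdac genes they were 6 of 8. Where that median is 0, a single cluster is enough to exceed it. The share of all protein-coding genes above their own median was not computed, so these counts cannot be read as an excess.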

How the data were processed

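Per the labels' protocols, 95 ng of DNA per sample went into a kit for reduced representation bisulfite sequencing, sequenced for 76 cycles with 20% PhiX control. Per the submitters' processing notes, the mm10 build and the tools Bismark 0.14.4, Trim Galore 0.4 and ChIPseeker 1.12.1 were used. How regions were called, with which coverage filter and threshold, was not stated in those notes or the labels, and the depth behind a cluster is unknown.

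The deposited BED lists hold 21 significant and 27857 not significant clusters, with a score of 0 in every line. Their starts count from 0, since start + 1 equals the start in the authors' deposited region table for all 21; positions are printed from 1. From that table only the signed median difference, a fraction given here in percentage points, and the assigned gene were used.

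Gene bounds and promoter windows came from RefSeq (GRCm38.p6); all 8 symbols matched. A cluster counted at a gene by an overlap of 1 bp. A start was taken 250 bases into a window. Counting was tested on simulated data. Work was done in Python 3.11.15; tables used numpy 2.4.6 and pandas 2.3.3, intervals scipy 1.17.1 and figures matplotlib 3.10.9. Members, lists and comparisons were chosen with earlier results of these data known. The text names all 8 members, the genes next in length, the 3 genes with most clusters in each list (ties by symbol; 1 of these genes is not reported here, and list counts include it) and the gene of a nearest called region; list genes with 0 clusters were named after their values were seen, and the region nearest to Mef2a, Mef2b, Mef2c, Hdac7 and Hdac9 is given by distance alone. The alternatives covered window size, overlap, minimum length, merging, coordinate base, the class of similar genes, and distance to gene ends and starts.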

Additional observations from a re-analysis of the deposited data

How the results depend on the processing

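The count of called clusters was 0 under all 9 alternatives. Among them were windows of 0 to 10000 bp and the addition of the 73 clusters that open the not significant list out of order. The nearest called region lay 2.09 Mb from any of the 8 genes, and the nearest of the 73 lay 3.16 Mb away. These alternatives therefore could not have changed the count. The number of clusters at the 8 genes ran from 16 (clusters of at least 50 bp only) to 26 (window of 10000 bp) against 22. The number of genes above the median gene of similar length was 5 or 6 in all 12 alternatives. The share of clusters near a gene end moved to 9.09% within 1000 bp, since 5 of the 7 clusters near an end lie from 1314 to 2959 bp away. The share near a listed start ran from 18.2 to 36.4% for distances of 500 to 3000 bp (distances chosen after seeing the data). The percent of genes of similar length with fewer clusters ran from 83.1 to 97.7 for Mef2b, 92.7 to 96.6 for Hdac5, 88.5 to 95.8 for Hdac7, 62.6 to 83.8 for Mef2d, 47.5 to 60.3 for Mef2c, 48.6 to 58.3 for Hdac9 and 18.8 to 38.6 for Hdac4. For Mef2a it ran from 0 to 29.9, with 0 where clusters under 50 bp were left out, since its only cluster is 6 bp long.

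No paired analysis was possible because neither list gives any value for a single sample, although titles of both groups carry the letters a to d. Leaving out a replicate was not run on this account. Read depth is unknown, which limits what a cluster that was not called can show.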
